A study of Mus musculus with 50 samples.

Results

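The synaptic vesicle release machinery is the set of proteins that store transmitter in vesicles, tether and prime these at the active zone, fuse them with the plasma membrane when calcium enters, and take the fusion complex apart again. For this set 41 genes were followed in the mouse hippocampus. The members were chosen by name, and an Agilent probe was assigned to a member when the symbol of its RefSeq accession, or the symbol in its description, was on the list. Of the 41 members, 38 had at least 1 of the 63 probes, out of 34491 genes or unnamed probes on the array. The other 3, Stxbp5, Sv2c and Unc13a, were given no probe by this rule and are not analysed here. Of the 38, 20 had several probes and 18 had 1.

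The study compared both hippocampi of male wild-type (WT) mice of the strain C57/BL6j with those of male transgenic (TG) mice on the same background that overexpress DCLK-short, a splice variant of doublecortin-like kinase 1. The transgene is named δC-DCLK-short, and its kinase is described as constitutively active. The promoter that drives the transgene and the age of the mice are not given in the sources used here. On Agilent, RNA of 5 WT mice (WT1 and WT3 to WT6) and of 5 TG mice (TG1 to TG5) was amplified and hybridized to 10 two-color arrays, each with 1 WT and 1 TG mouse. Each mouse lay on 2 arrays, once with Cy3 and once with Cy5. Whole hippocampi were measured, so that fewer cells of a type and less RNA per cell cannot be told apart.

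At a synapse, a vesicle fuses when the SNARE protein of its membrane, Vamp2 (synaptobrevin 2), zips up with Stx1a (syntaxin 1A) and Snap25 of the plasma membrane. Complexins clamp and assist this complex, and synaptotagmins and Doc2 proteins sense the calcium. Rab3 proteins with Rims and rabphilin, and the scaffolds bassoon and piccolo with Munc13 proteins, bring vesicles to the active zone and prime them, whereas Nsf and the α- and β-SNAP proteins (Napa and Napb) pull used SNARE complexes apart. In the hippocampus most of these synapses release glutamate, which Slc17a7 (VGLUT1) and Slc17a6 (VGLUT2) load into vesicles.

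The bases before the transcription start are shown for 4 members that the results below turn on: Pclo, lower on each array, Syp, with the largest mean ratio, Slc17a7, low in 1 mouse, and Syn1, whose probes differ. The sequences are from RefSeq on GRCm38.p6, which held an entry for 31 of the 41 members, and run over the 250 bases before the start, 5′ to 3′ on the strand of the gene. Capitals mark a GC box (GGGCGG on either strand) in the first 3, and the cAMP response element TGACGTCA in Syn1.
Pclo, chr5:14514668-14514917, plus strand: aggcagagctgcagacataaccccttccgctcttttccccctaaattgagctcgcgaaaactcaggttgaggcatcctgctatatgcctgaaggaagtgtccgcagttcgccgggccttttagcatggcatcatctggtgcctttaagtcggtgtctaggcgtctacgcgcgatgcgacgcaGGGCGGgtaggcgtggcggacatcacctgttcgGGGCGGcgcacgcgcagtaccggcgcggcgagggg
Syp, chrX:7638330-7638579, plus strand: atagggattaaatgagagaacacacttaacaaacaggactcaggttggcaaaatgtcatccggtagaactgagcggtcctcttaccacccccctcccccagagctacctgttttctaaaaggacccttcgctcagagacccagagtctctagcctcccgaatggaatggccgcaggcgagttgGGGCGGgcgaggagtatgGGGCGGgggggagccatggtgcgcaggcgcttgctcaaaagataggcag
Slc17a7, chr7:45163671-45163920, plus strand: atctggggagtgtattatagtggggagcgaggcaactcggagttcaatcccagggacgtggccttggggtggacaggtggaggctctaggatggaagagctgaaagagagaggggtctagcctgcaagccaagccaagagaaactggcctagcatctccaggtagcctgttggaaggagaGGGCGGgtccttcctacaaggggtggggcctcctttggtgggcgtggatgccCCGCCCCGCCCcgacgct
Syn1, chrX:20920919-20921168, minus strand: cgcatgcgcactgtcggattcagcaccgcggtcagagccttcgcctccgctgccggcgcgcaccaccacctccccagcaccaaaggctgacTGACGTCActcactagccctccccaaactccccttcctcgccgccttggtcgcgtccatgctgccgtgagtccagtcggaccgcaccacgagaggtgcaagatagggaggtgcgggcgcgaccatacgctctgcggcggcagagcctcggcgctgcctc
A GC box was found in 22 of the 31 member promoters (71%) and in 32.9% of the 27025 promoters of all genes. The median GC content of these 250 bases was 61.2% for members and 52% for all genes. The response element TGACGTCA was found in Syn1 alone of the 31, and in 1.62% of all promoters. A match of letters is not a site, and no binding was measured here.

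The direction of each ratio is that of the labels and is in doubt. The expression values that the study tabulated for these arrays follow an exchange of arrays 1 to 5 with arrays 6 to 10, and their direction is the opposite of the one given here. The deposited intensities bear on this in their own way. Within each dye orientation, the deviation of every array from its group mean was compared between arrays of opposite dye that share a mouse. In 4 pairs a mouse is shared both as labelled and after the exchange, and the deviations followed the shared mouse in each, with r between 0.20 and 0.80 over all probes. In 6 pairs a mouse is shared after the exchange only, and r was above 0 in 4 of them, with a mean of 0.18. These 4 ran from 0.23 to 0.48. The pairs below 0, at -0.27 and -0.24, each hold array 1 or 9, which stand apart below. In 6 pairs a mouse is shared as labelled only, and r was above 0 in 2, with a mean of -0.13. Of these, the pairs with array 1 or 9 had -0.52 and -0.13, and the others ran from -0.15 to 0.09. These correlations are across genes, which are not independent replicates. Under the exchange every sign of an Agilent ratio below turns over, and the mouse labelled TG4 becomes a WT mouse. The number of genes called on all arrays is the same. The exchange also regroups the channels averaged for most mice, so that their levels and overlaps below hold as labelled only.

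A probe was taken as present when, on every array, Cy3 and Cy5 both exceeded the 95th percentile of 314 negative controls. All 63 member probes were present, as were 82.1% of all probes, and no member spot was saturated. Array medians of the raw signal ran from 109 to 169 for Cy3 and from 77.9 to 165 for Cy5. The log ratio of TG over WT, after loess on each array, was averaged over the probes of a gene. The median log2 ratio over all genes was within 0.01 of 0 on each array, and its SD over genes was between 0.13 and 0.34, highest on arrays 1 and 9. The Agilent gene level of Dclk1 itself had a log2 ratio of -0.07 ± 0.03 (SE, FDR 0.273), and whether its probes lie in the part the transgene carries is not known here. Of the marker lists, the median over the 15 hippocampal neuron genes stayed between -0.06 and 0.05 on all arrays, with 2 genes called higher and 1 lower over the arrays.

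Of the 38 members, 2 (5.26%) passed an FDR of 0.1 in limma's test over the 10 arrays, against 8.18% of the 34491 genes tested. Vamp2 was higher and Pclo (piccolo, a giant scaffold of the active zone) was lower in the TG mice as labelled. The share of all genes was 4.05% for higher and 4.13% for lower. The share of members called was thus not above that of all genes. At an unadjusted p under 0.05 there were 8 members (21.1%) and 6569 genes (19%). The median log2 ratio of the members was -0.02, with 17 above 0 and 21 below, and that of all genes was 0.00. The median size of the log2 ratio without its sign was 0.11 for members and 0.03 for all genes, and without arrays 1 and 9, which share a mouse (see the plot of ratios by array), it was 0.05 and 0.03. Members were brighter, with a median raw signal of 491 against 113 over all probes. The size of the ratio was not computed for genes of a similar signal. Genes of a signal similar to the members, within the quartiles of the member signal, were called in 18.1%, and the 18 members within these quartiles in 11.1%.

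**Figure D1:**
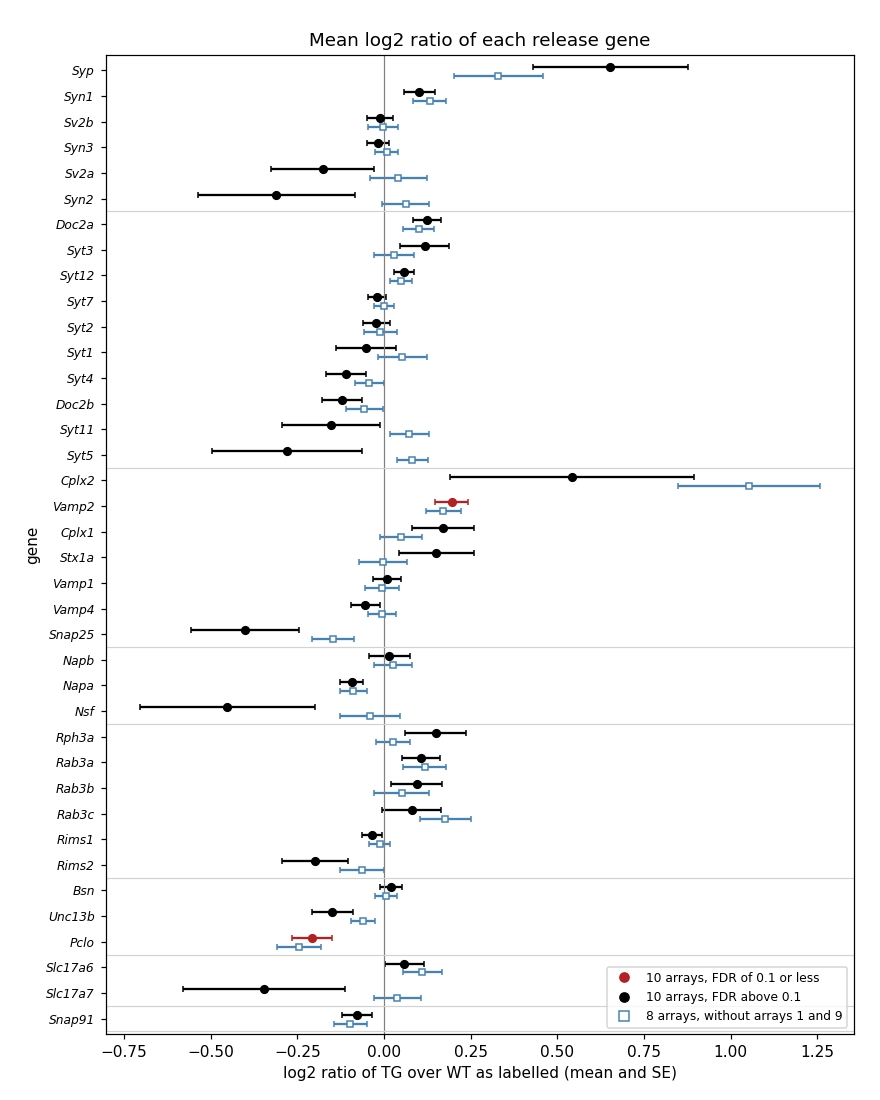
Mean log2 ratio of TG over WT as labelled (x axis) for each of the 38 members (y axis, grouped by role), with bars for the SE of limma's fit. Filled circles are all 10 arrays, red where the FDR was 0.1 or less (Vamp2 and Pclo), and open squares are the 8 arrays without arrays 1 and 9, where Cplx2 lies at 1.05 and Nsf, Syn2, Syt5 and Slc17a7 lie within 0.1 of 0.

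For Vamp2, the vesicle SNARE protein, the log2 ratio was 0.20 ± 0.05 (SE, n = 10 arrays, FDR 0.0473). It was above 0 on 8 of 10 arrays, with a lowest value of -0.03, a median of 0.20 and a highest of 0.42. The log2 signal of the 5 WT mice was 9.02 in WT1, 8.69 in WT3, 8.67 in WT4, 9.02 in WT5 and 9.02 in WT6. In the TG mice it was 9.13 in TG1, 9.02 in TG2, 9.11 in TG3, 9.12 in TG4 and 9.01 in TG5. WT3 and WT4 lay below the other 8 mice, and the other 3 WT mice overlapped with the TG mice. Vamp2 no longer passed the FDR without array 2, 3 or 6, or without mouse WT3, WT4, TG1, TG2 or TG4, with ratios between 0.16 and 0.21. With 1 value per mouse the difference was 0.20 ± 0.08 (SE, n = 5 and 5) with an FDR of 0.542. Its 3 probes had unlike ratios. One, at chromosome 11, 68817684 to 68817743 (build not named in the files), had a log2 ratio of 0.44, whereas the other 2, which lie at 68815639 to 68816320 and at 68815649 to 68816330, had 0.05 and 0.09. None of the 3 passed the FDR at the level of single probes, where 7.41% of all probes did.

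For Pclo, the log2 ratio was -0.21 ± 0.06 (SE, n = 10 arrays, FDR 0.0681). It was below 0 on all 10 arrays, between -0.58 and -0.03 with a median of -0.13, and Pclo was the only member with the same sign on each array. The log2 signal was 9.87 in WT1, 9.85 in WT3, 9.81 in WT4, 9.76 in WT5 and 9.80 in WT6. In the TG mice it was 9.78 in TG1, 9.50 in TG2, 9.58 in TG3, 9.67 in TG4 and 9.52 in TG5. TG1 lay above WT5, and the other 4 TG mice lay below all WT mice. The 2 arrays with TG2 had the lowest ratios, -0.50 and -0.58, and without TG2 the ratio was -0.13. Pclo passed without TG4, but not without any other single mouse, nor without array 2, 3, 6 or 8. With each array centred on its median in place of loess it was -0.11 and did not pass. With 1 value per mouse the difference was -0.21 ± 0.06 (SE) with an unadjusted p of 0.00346 and an FDR of 0.297. Pclo was measured with 1 probe, at chromosome 5, 14248966 to 14249025 (build not named).

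With the mouse as the replicate, none of the 38 members passed the FDR of 0.1, while 0.0841% of all genes did, 29 in number. At an unadjusted p under 0.05 there were 2 members (5.26%), Vamp2 and Pclo, and 8.19% of all genes. The levels of the 5 WT and the 5 TG mice overlapped for each of the 38 members, while 2.12% of all genes showed no overlap. After the exchange of arrays, 0 members and 11 genes passed, and 3 members (7.89%) and 7.4% of all genes had an unadjusted p under 0.05.

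In all, 2 further members had probes of opposite sign of which 1 passed the FDR. Syn1 (synapsin 1, which ties vesicles into the reserve pool) had a log2 ratio of 0.10 ± 0.05 (SE, FDR 0.243), above 0 on 8 of 10 arrays. Its log2 signal was between 11.25 and 11.34 in the WT mice, with 11.31 in WT1, 11.30 in WT3, 11.25 in WT4, 11.32 in WT5 and 11.34 in WT6. In the TG mice it was 11.52 in TG1, 11.22 in TG2, 11.50 in TG3, 11.42 in TG4 and 11.37 in TG5, so that 4 of the 5 lay above all WT mice. The probe at chromosome X, 19099708 to 19099767 (build not named), had 0.30 ± 0.09 (SE, FDR 0.0752) and was above 0 on 8 arrays. It was at 0.53 and 0.99 on arrays 1 and 9, and between -0.01 and 0.38 with a mean of 0.19 on the other 8. The probe at 19159578 to 19159637 had -0.10 ± 0.11 (SE, FDR 0.731), and it was at -0.76 and -0.83 on arrays 1 and 9.

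Slc17a6, the vesicular glutamate transporter of subcortical neurons, had a log2 ratio of 0.06 ± 0.06 (SE, FDR 0.688), between -0.22 and 0.36 on the arrays, and 0.11 without arrays 1 and 9. In the WT mice the log2 signal was 7.66 in WT1, 7.61 in WT3, 7.59 in WT4, 7.38 in WT5 and 7.66 in WT6, and in the TG mice it was 7.70 in TG1, 7.51 in TG2, 7.83 in TG3, 7.46 in TG4 and 7.68 in TG5. The 2 groups overlapped over most of their range. The probe at chromosome 7, 45838486 to 45838545 (build not named), had 0.16 ± 0.04 (SE, FDR 0.0707) and was above 0 on the 8 arrays other than 1 and 9, between 0.14 and 0.38. The probe at 45840000 to 45840059 had -0.05 ± 0.09 (SE, FDR 0.861). The probe that passed was the dimmer one, with raw signals between 83.9 and 239, against 193 to 817 for the other. The median raw signal over all probes was 113. The median over the 9 genes of the list for thalamus and midbrain neurons was -0.02, with 1 called higher and 1 lower.

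For Napa (α-SNAP), 1 of 2 probes passed the FDR with -0.17 ± 0.04 (SE, FDR 0.0543), and the other had -0.01, which gave -0.09 ± 0.03 (SE, FDR 0.128) for the gene. For Snap25 the gene had -0.40 ± 0.16 (SE, FDR 0.182), and its 3 probes had -0.90, -0.16 and -0.14.

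Among the 6 measured synapsins and vesicle membrane proteins Syp (synaptophysin, a main protein of the vesicle membrane) was the highest with 0.65 ± 0.22 (SE, FDR 0.128) and Syn2 (synapsin 2) the lowest with -0.31 ± 0.23 (SE, FDR 0.541). Syp was above 0 on 8 of 10 arrays, between -0.24 and 2.37 with a median of 0.37. Its log2 signal was between 9.30 and 9.77 in the WT mice. In the TG mice it was 9.75 in TG1, 9.68 in TG2, 9.97 in TG3, 11.58 in TG4 and 9.69 in TG5. TG4 stood far above the other 9 mice, and the other 4 TG mice lay in the upper part of the WT range or just above it. Without arrays 1 and 9 the ratio of Syp was 0.33 ± 0.13 (SE, FDR 0.22).

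The values of the role groups rest in part on arrays 1 and 9, and those given as without these arrays come from the other 8. Of the 10 calcium sensors none passed, and the ratios ran from -0.28 for Syt5 to 0.12 for Doc2a. Doc2a, a high-affinity calcium sensor, was above 0 on 8 of 10 arrays (FDR 0.112). Syt1, the main sensor for fast release, had -0.05 ± 0.09 (SE, FDR 0.849), and 0.05 without these arrays, where Syt5 had 0.08. Among the 7 SNARE proteins and regulators Vamp2 alone passed, and the values ran from -0.40 for Snap25 to 0.54 for Cplx2 (complexin 2), which had -0.15 and 1.05 without these arrays. Stx1a had 0.15 ± 0.11 (SE, FDR 0.532), and -0.0028 without these arrays. Of the 3 genes for SNARE disassembly, Nsf was the lowest with -0.45 ± 0.25 (SE, FDR 0.375) and Napb the highest with 0.02, and without these arrays they had -0.04 and 0.03.

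The 6 members of the Rab3 group ran from -0.20 for Rims2 to 0.15 for Rph3a (rabphilin 3A), and none passed. Without these arrays Rims2 had -0.06 and Rph3a 0.03. Rab3a, the main Rab protein of synaptic vesicles, had 0.11 ± 0.05 (SE, FDR 0.324). In the active zone group Bsn (bassoon) was the highest with 0.02, and Unc13b (Munc13-2, a priming factor) had -0.15 ± 0.06 (SE, FDR 0.189) and was below 0 on 9 of 10 arrays. Without these arrays Bsn had 0.0048 and Unc13b -0.06. Slc17a7 had -0.35 ± 0.23 (SE, FDR 0.493), and 0.04 without these arrays. Snap91 (AP180, an adaptor of the clathrin coat), the only member of its group, had -0.08 ± 0.04 (SE, FDR 0.361).

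**Figure D2:**
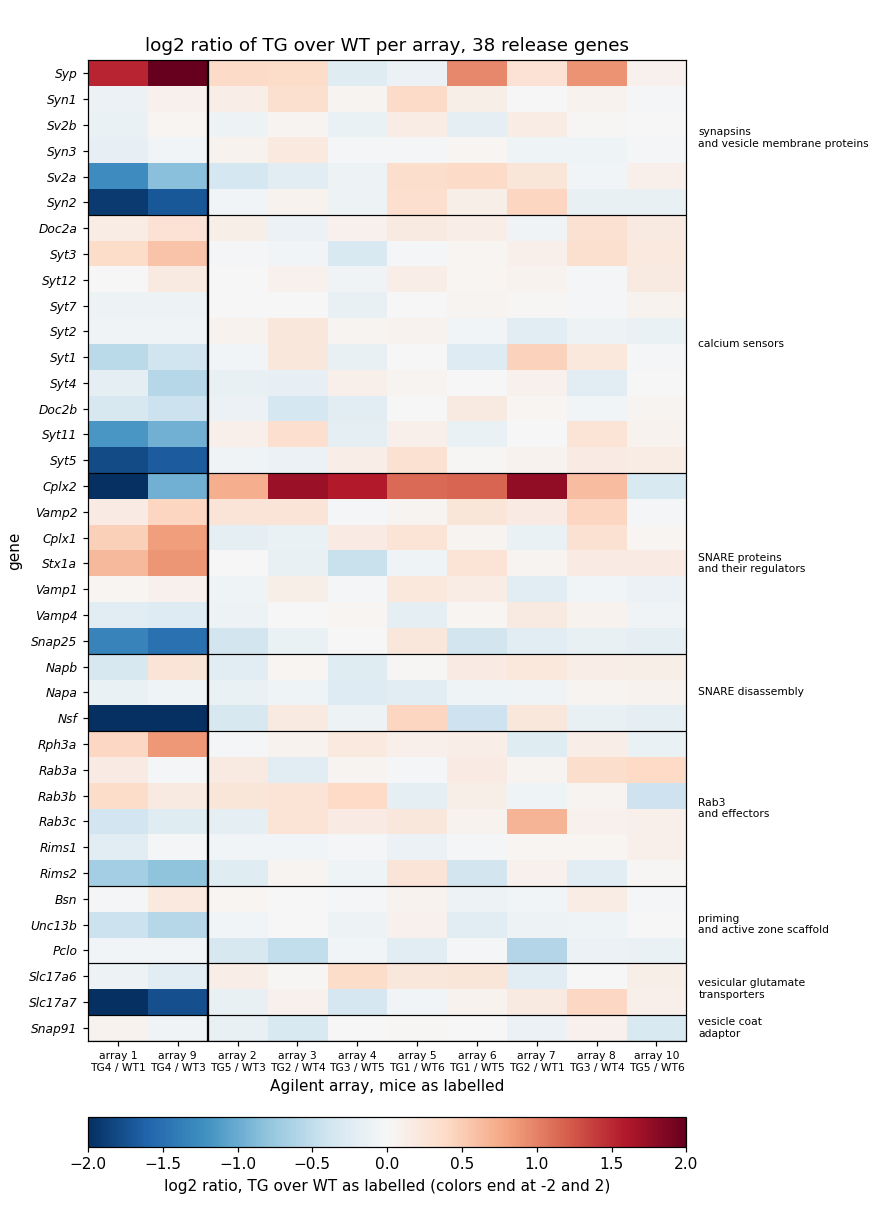
Log2 ratio of TG over WT as labelled (color, red higher in TG, blue lower, ending at -2 and 2) for each of the 38 members (rows, grouped by role) on each of the 10 arrays (columns, with the 2 mice as labelled). Arrays 1 and 9, left of the black line, share TG4, and 14 members differ there by more than 0.5 from the mean of the other 8 arrays.

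Arrays 1 and 9 stood apart for many members. Both carry the RNA labelled TG4, with Cy5 on the first and Cy3 on the second, and they share this mouse both as labelled and after the exchange. The mean ratio of arrays 1 and 9 differed by more than 0.5 on the log2 scale from the mean of the other 8 arrays in 14 of 38 members (36.8%), 10 of them lower and 4 higher. Over all genes the share was 5.44%, and over the other 57 release genes it was 14%. Genes of a signal similar to the members, within the same quartiles as above, had a share of 14%, and the 18 members within them 44.4%. For the pairs of arrays of the other 9 mice, the share of members was between 2.63% and 21.1%, and that of all genes between 0.29% and 2.13%. The highest shares of members, 21.1% for WT3 and 15.8% for WT1, come from pairs that include array 9 or array 1. For the remaining mice the share of members was at most 13.2%. These are descriptions, since the arrays were singled out after their values were seen.

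The lower members on arrays 1 and 9 belong to most of the role groups. Cplx2 differed by -2.55, Nsf by -2.06, Slc17a7 by -1.93, Syn2 by -1.87 and Syt5 by -1.81. Snap25 differed by -1.26, Syt11 by -1.13, Sv2a (a vesicle glycoprotein) by -1.09, Rims2 by -0.68 and Syt1 by -0.52. The higher members were Syp with 1.61, Stx1a with 0.77, Cplx1 with 0.61 and Rph3a with 0.61. For Nsf the log2 signal was between 11.04 and 11.46 in the 5 WT mice and 11.32 in TG1, 11.13 in TG2, 11.10 in TG3, 9.08 in TG4 and 10.94 in TG5. For Slc17a7 it was between 9.71 and 9.94 in the WT mice and 9.93 in TG1, 9.96 in TG2, 10.04 in TG3, 7.81 in TG4 and 9.75 in TG5. For Syn2 it was between 10.82 and 11.15 in the WT mice, 9.02 in TG4 and between 10.93 and 11.16 in the other TG mice. For each of the 3 genes, TG4 alone lay apart and the other 9 mice overlapped.

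**Figure D3:**
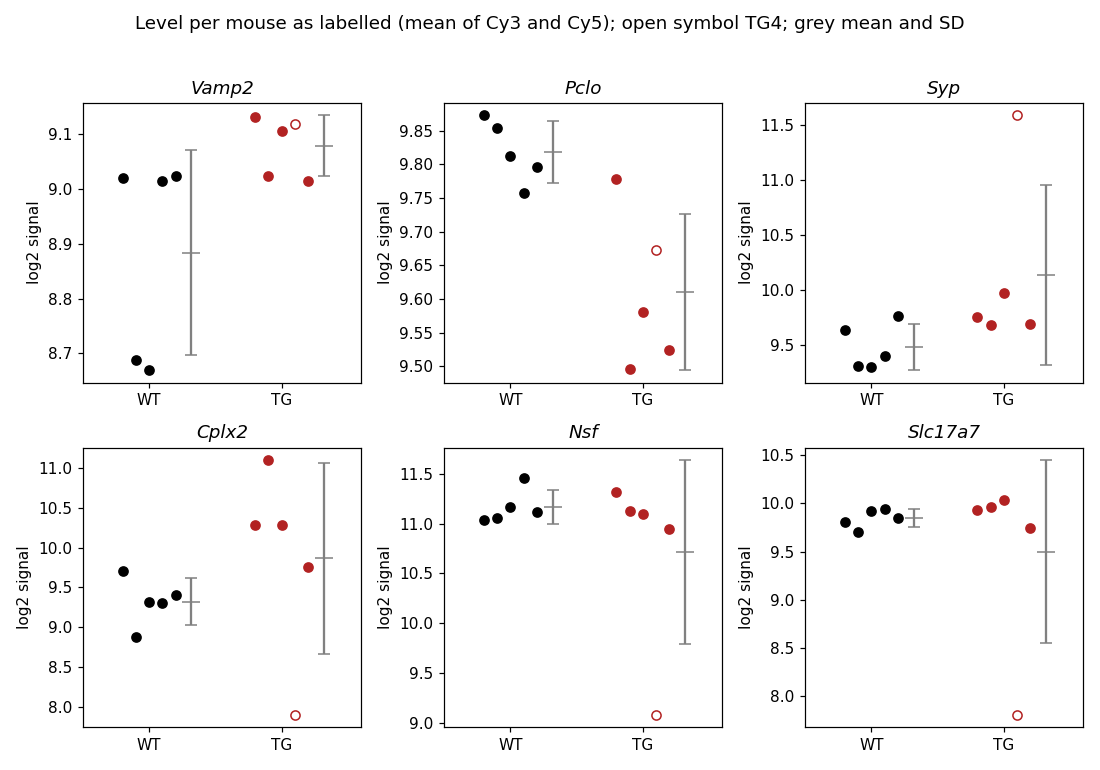
Log2 signal (y axis, mean of the Cy3 and the Cy5 channel) of 6 members in each of the 5 WT mice (black) and the 5 TG mice (red) as labelled, with TG4 as an open symbol and the mean and SD of each group in grey. TG4 lies at 11.58 for Syp, 7.91 for Cplx2, 9.08 for Nsf and 7.81 for Slc17a7, outside the range of the other 9 mice, and inside it for Pclo and Vamp2.

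Of the marker lists, that of the oligodendrocytes moved with these arrays. The median over its 8 genes was between -0.49 and 0.20 on the arrays, its difference between arrays 1 and 9 and the others was -0.43, and 4 of the 8 genes were lower by more than 0.5 and 1 was higher. Its mean log2 signal was 9.57 in TG4, the lowest of the 10 mice, and between 9.997 and 10.24 in the WT mice. The median difference was -0.03 for the 15 hippocampal neuron genes, with 0 lower and 1 higher by more than 0.5, 0.07 for the 10 interneuron genes, -0.03 for the 8 astrocyte genes, -0.13 for microglia, -0.08 for choroid plexus and -0.06 for thalamus and midbrain neurons. The part of the oligodendrocyte genes in the result was not tested.

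Without arrays 1 and 9, 2 of 38 members passed the FDR, Pclo and Cplx2, against 4.78% of all genes. Since these arrays were left out after their values were seen, the FDR values without them are descriptive. Cplx2 then had 1.05 ± 0.20 (SE, n = 8 arrays, FDR 0.04), and with all arrays 0.54 ± 0.35 (SE, FDR 0.471). Its ratio was -2.03 on array 1 and -0.96 on array 9, and between -0.30 and 1.77 on the other 8 with 7 above 0. The log2 signal was 9.70 in WT1, 8.88 in WT3, 9.31 in WT4, 9.31 in WT5 and 9.40 in WT6. In the TG mice it was 10.28 in TG1, 11.09 in TG2, 10.28 in TG3, 7.91 in TG4 and 9.76 in TG5. The lowest mouse and the highest were both TG mice as labelled, and the 4 TG mice other than TG4 lay above all WT mice. After the exchange of arrays, TG1 at 10.07 lay above WT6 at 9.82, so that this separation did not hold. Pclo had -0.25 ± 0.06 (SE, FDR 0.0831) without these arrays, and Vamp2 0.17 ± 0.05 (SE, FDR 0.114). The sign turned in 9 of the 38 members. Syn2 went to 0.06, Syt5 to 0.08, Slc17a7 to 0.04, Sv2a to 0.04, Syt11 to 0.07, Syt1 to 0.05 and Syn3 to 0.0071, and Stx1a and Vamp1 went to -0.0028 and -0.005.

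Probes of one gene parted on arrays 1 and 9. For Snap25 the probe at chromosome 2, 136287749 to 136287797 (build not named), had log2 ratios of -3.69 and -3.88 there and between -0.74 and 0.35 on the other 8 arrays. The raw signal of this probe in the channel of TG4 was 424 on array 1 and 407 on array 9, and the lowest in any other channel was 2566. The other 2 Snap25 probes differed by -0.10 and -0.09 between these arrays and the rest. For Nsf 1 probe differed by -3.57 and the other by -0.55. For Syt11 the differences were -2.84 and 0.58, and for Sv2a -2.41 and 0.23. Of the 5 probes of Syt1 1 differed by -2.13 and the other 4 by values between -0.60 and 0.20. A ratio averaged over the probes of such a gene thus stands between values that do not resemble each other.

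The position of the probe went with the difference. It could not be compared for Syp, Syn2, Syt5, Slc17a7, Stx1a, Cplx1 and Rims2, which have 1 probe each. Nor could it be for Snap25, where only the lowest probe has a mapped position. From the coordinates in the files, the probe nearest the 3′ end of a gene and the one farthest upstream were compared where these were at least 100 bases apart on one strand and present. Of the 18 members with such a pair, the upstream probe was the lower one on arrays 1 and 9 in 14 (77.8%), by more than 1 in 7 of the 18 (38.9%). These 7 were Syt11, Nsf, Sv2a, Vamp2, Syn1, Cplx2 and Rph3a. The median of upstream minus 3′ was -0.74 for the members. Over all 4251 genes with such a pair the upstream probe was the lower one in 72.2%, by more than 1 in 9.55%, and the median was -0.15. In Sv2a 510 bases lie between the probes, and in Syt11 2557. The exceptions were Napa, Syt7, Syt12 and Syt4, whose upstream probe was higher by 0.12 to 0.33. Of all genes with a present probe lower by at least 1 and another lower by at most 0.5, 374 were found on arrays 1 and 9, and the lower probe was the upstream one in 318 (85%). For the pairs of arrays of other mice such genes numbered 14 for WT1, which lies on array 1, 38 for WT3, which lies on array 9, and at most 1 for the rest. Distances are genomic and include introns, and why the probes parted was not tested.

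**Figure D4:**
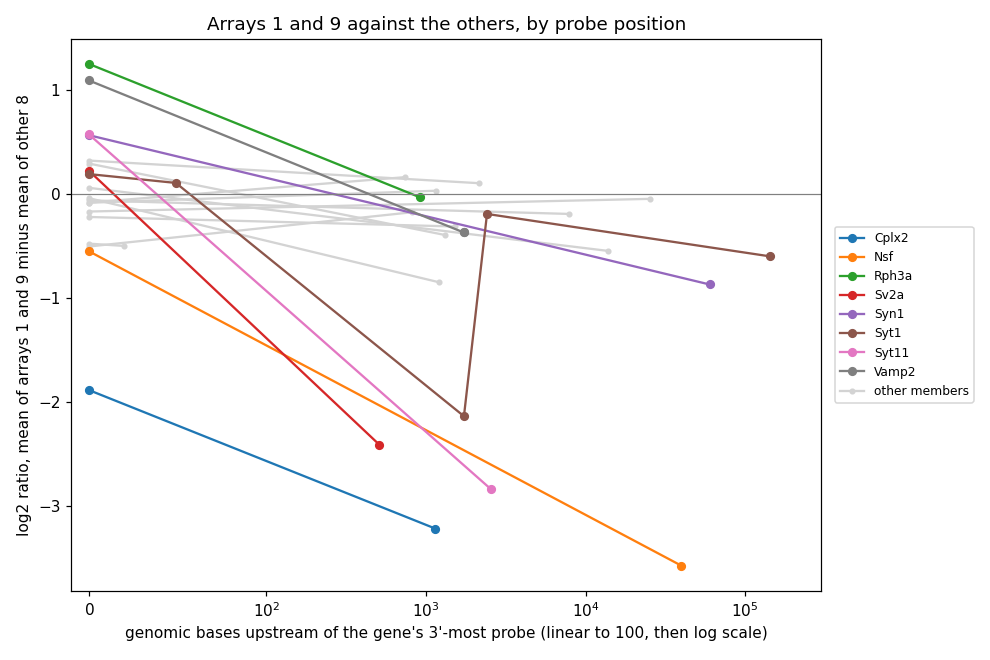
Difference of the log2 ratio between arrays 1 and 9 and the other 8 arrays (y axis) for each present probe of the members with several mapped probes, by its distance in genomic bases upstream of the 3′-most probe of the gene (x axis, linear to 100 and then a log scale). Lines join the probes of a gene, in color where they differ by more than 1, and run down from the 3′-most to the upstream probe for Syt11, Nsf, Sv2a, Vamp2, Syn1, Cplx2 and Rph3a, whereas for Syt1 a probe in between is the lowest.

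Of 57 other genes of vesicle release with a probe, 9 passed the FDR (15.8%), 3 higher and 6 lower as labelled, against 8.18% of all genes. Among genes within the quartiles of the member signal 18.1% passed, and no set matched to the signal of these 57 was formed. The 3 with the smallest p were lower. Sypl (a synaptophysin-like vesicle protein) had -0.48 ± 0.08 (SE, FDR 0.0133), between -0.92 and -0.06 on the 10 arrays. Stxbp3 (Munc18c, which binds syntaxins) had -0.17 ± 0.04 (SE, FDR 0.0431) and was below 0 on all 10 arrays. Synpr (synaptoporin, abundant in mossy fiber terminals) had -0.29 ± 0.07 (SE, FDR 0.0431) and was below 0 on 9. Among the other calls, named after their values were seen, were Erc2 with -0.16, Stx2 with -0.12, Syngr1 with 0.14 and Syt9 with 0.10. Sypl passed in all alternatives tried over the arrays, and was the only one of the 9 to pass with each array centred on its median or without WT3 or WT4. With 1 value per mouse 0 of the 57 passed, and 9 (15.8%) had an unadjusted p under 0.05, against 8.19% of all genes. The interneuron and astrocyte lists had medians of 0.09 and 0.11 with 2 genes called higher in each, and their part was not tested.

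On ABI, a one-color platform with 1 array for each of 5 WT and 5 TG mice, 1 member could be matched by its accession. Snap25 had a vsn-normalized level of 10.5 ± 0.90 (SD, n = 5) in the WT mice and of 9.97 ± 0.52 (SD, n = 5) in the TG mice, on a log2-like scale. The difference of -0.52 ± 0.39 (SE) did not pass limma's test, with an FDR of 0.999, and 3 of 33012 probes did. With quantile normalization it was -0.90. In the study's methods ABI arrays are said to come from batches of different days, and which array belongs to which is not given in the sources used here, so that the batch could not be fitted. The raw signal was 342 in WT1, 718 in WT2, 2008 in WT3, 3277 in WT4 and 186 in WT5. In the TG mice it was 297 in TG1, 333 in TG2, 257 in TG3, 1391 in TG4 and 200.1 in TG5. In 8 of the 10 mice this lay below 1585, the median over all probes and mice. The range of the TG mice lay within that of the WT mice, and the mouse numbers are not known to be those of the Agilent arrays. On Agilent, in contrast, the 3 Snap25 probes reached raw signals of 11390, 24504 and 31454, against a median of 113 over all probes. Whether the ABI probe reports the level of Snap25 was not tested.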

How the data were processed

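Hippocampal RNA of 5 WT and 5 TG mice was hybridized to 10 two-color Agilent arrays, and RNA of 5 and 5 mice to 10 ABI arrays. The deposited Agilent files hold, per the file headers, a mean pixel intensity for Cy3 and for Cy5 that is not normalized, and a log10 ratio for which Feature Extraction had corrected background and dye. The ABI intensities were deposited by the authors as raw signals. The other platforms were not analysed here, and 80 Illumina columns whose names show no mouse were not used.

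For Agilent, loess was applied to the ratios of each array with no background subtracted. Ratios were averaged over the spots of a probe and the probes of a gene, and fitted with an intercept in limma 3.58.1 under R 4.3.3. P values were adjusted over all genes by the Benjamini and Hochberg method, with an FDR of 0.1 as the limit. For 1 value per mouse, single channels (loess, then Aquantile) were averaged over both dyes. The fit over arrays takes the 10 arrays as independent, although each mouse lies on 2. ABI signals were normalized with vsn, programmed here with a trimming quantile of 0.9, and fitted for genotype. The number of arrays limits the precision. On simulated data with 200 of 20000 genes changed by 0.5 on the log2 scale, 99% were called in the Agilent ratio fit and 10% of the calls were false. This checks the fit alone, since the simulated arrays had a preset spread, were independent and held no RNA that stood apart. The shares do not carry over to the members, whose median log2 ratio without its sign was 0.11.

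The members, the marker lists and the other release genes were chosen with earlier results of these data known. Named are all members past the FDR, those with probes of opposite sign of which 1 passed, the highest and lowest of each role, and the 3 other release genes with the smallest p. Members named for arrays 1 and 9, and the probe comparison, were chosen after their values were seen. The alternatives were background correction, centring, the scanner's ratio, median pixels, a dye term, mouse blocks, present probes, the brightest probe, an FDR of 0.05, an exchange of arrays, quantile normalization, and leaving out each array or mouse. Leaving out spots marked as outliers by the scanner software, and leaving out mice for the other release genes, was chosen after seeing the data. Some of the other release genes are counted but not reported here by name.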

Additional observations from a re-analysis of the deposited data

Results flagged for a closer look

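In groups of 5 arrays of one dye orientation, the highest or lowest array of a member was set against its nearest neighbour. For independent normal values chance sets about 1 in 20 such groups apart. Here 12 of 76 were found, 10 of them with array 1 or 9. The members lie on the same arrays and are not independent, and the share over all genes was not computed. No excess over chance can therefore be read from this count. Array 1 lay far below the rest for Syn2 (-1.91, next array -0.10), Syt5 (-1.79, next -0.11), Cplx2 (-2.03, next 0.72) and Slc17a7 (-2.02, next -0.33). Array 9 lay far below for Syn2 (-1.70, next -0.16), Syt5 (-1.66, next 0.03), Snap25 (-1.49, next -0.37), Nsf (-2.08, next -0.42) and Slc17a7 (-1.75, next 0.07), and far above for Stx1a (0.88, next 0.28). Both arrays carry the RNA labelled TG4. Away from these arrays, Rab3b was low on array 5 (-0.19, next 0.24) and Pclo on array 7 (-0.58, next -0.13). The causes were not tested.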

How the results depend on the processing

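No member passed with 1 value per mouse, or on ABI, under any alternative run. Over the 10 arrays, 2 members and 9 other release genes passed. With each array centred on its median, 2 members (Syp and Vamp2) but 1 other release gene passed, 1160 genes passed in all against 2823, and Bsn turned to -0.038 and Snap91 to 0.066. The members called numbered 1 with median pixels, with the brightest probe, at an FDR of 0.05 and without spots marked as outliers, 5 with the TG mouse and 6 with the WT mouse as a random block, where 4217 and 5201 of all 34491 genes were called and the block correlations were -0.16 and -0.25. A negative block correlation lowers the SE of a mean ratio, so that the counts with a mouse as block are not stricter than the main fit. At an FDR of 0.05, 3 other release genes passed. The brightest probe turned Slc17a6 to -0.048 and Syn1 to -0.10. When an array or mouse was left out, 0 to 3 members passed (0 without array 2 or 6, or mouse WT3, WT4 or TG1), and, for mice alone, 1 to 7 other release genes. Then Slc17a6 ran from -0.00288 (without WT5) to 0.11, Napb from -0.0119 to 0.053 (below 0 without array 6, 7 or 9, or mouse WT4, TG1 or TG2, at -0.00184, -0.0063, -0.0119, -0.00124, -0.00594 and -0.0118), and Bsn from -0.0038 (without WT3) to 0.044. Without TG4, Syn2 turned from negative values as low as -0.45 to 0.063, Syt5 from -0.41 to 0.081 and Slc17a7 from -0.49 to 0.038. The causes were not tested. The deviations of mice of the same number had r from -0.21 to -0.08 on Agilent and from -0.24 to 0.37 on ABI, above 0 for 3 of 5 numbers there, so that the numbers were not taken as pairs, and with the replicate number as a block 0 members passed on either platform, as did 0 of all genes on Agilent. A block for slide or scan date was not run for Agilent, since each slide held 1 array and all were scanned on the same day, nor a batch for ABI, where the arrays of each batch are not known here. The lowest median raw signal of a member probe was 71.1, against 113 over all probes.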
